A study of Homo sapiens with 4 samples.

Results

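HOX genes encode homeodomain transcription factors that give cells their place along the head-to-tail axis of the embryo. In humans they lie in 4 clusters, HOXA, HOXB, HOXC and HOXD, in which the order of the genes follows the order of their expression: low paralogue numbers (1 to 3) are anterior, middle ones (4 to 8) central and high ones (9 to 13) posterior. Adult cells and cell lines usually keep the pattern of the tissue they came from, held by Polycomb repression and Trithorax/MLL activation, so the set of active HOX genes is commonly read as a record of where a line came from. The members here were every protein-coding gene of the table named HOXA, HOXB, HOXC or HOXD and a number. There were 35 of 34675 genes, with 11 in HOXA, 8 in HOXB, 9 in HOXC and 7 in HOXD. HOXB1, HOXB13, HOXD10 and HOXD12 were not analysed here.

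The series compared stable lines of MDA-MB-231, an established mesenchymal-like triple-negative breast carcinoma line taken from a pleural effusion. The LKB1 line carried pcDNA-FLAG-LKB1 wildtype, a plasmid for the tagged serine/threonine kinase that STK11 encodes, and the vector line carried pcDNA-Vector. Each line had 2 libraries of total RNA from cells grown on plastic in medium with serum. The labels name 1 stable line per plasmid and do not say whether its libraries were separate cultures, so the p-values rest on a spread between libraries that may be technical. In the titles, the 2 libraries of the vector line and 1 of the LKB1 line share a run tag, the other LKB1 library carries another, and the LKB1 titles read fmRNA where the vector titles read mRNA. With no value per library, run and preparation cannot be told apart from the plasmid.

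No value per library was given. Folds, p-values and adjusted p-values (Benjamini-Hochberg over all 34675 genes) are those of the authors' deposited table, and a gene was called at an adjusted p under 0.05. Read totals, each the sum over the 2 libraries of a line, were recovered from the deposited fold, which takes only certain values at low read numbers. The depth of the LKB1 line over the vector line, 1.04 to 1, was inferred from the prior counts within the deposited fold and not from a sum of reads. Read ratios below are adjusted for this difference in depth. Their 95% intervals are exact (Clopper-Pearson) and cover counting error only. The direction of the folds is not named in the table. They were taken as LKB1 over vector since STK11 had 2112 reads in the LKB1 line and 1321 in the vector line (1.54-fold, adjusted p = 0.00105, log2 0.62 in the authors' deposited table), and every direction below rests on that.

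Several facts about the lines stand beside every HOX value. Read totals of VIM, CD44, AXL, MSN, CAV1, KRT18 and KRT8, which this carcinoma line expresses strongly, were all beyond the 3000 reads searched or unresolved, while KRT5 had 0 reads in both lines and ESR1 12 reads in the LKB1 line and 8 in the vector line. Of the other markers listed as low or absent, ERBB2 had 1364 reads in the LKB1 line and 1104 in the vector line, CDH1 278 in the LKB1 line and 431 in the vector line, EPCAM 209 in the LKB1 line and 152 in the vector line and PGR 0 in the LKB1 line and 4 in the vector line, so 3 of the 6 were well read in both lines. Of 8 endothelial markers analysed, 7 fell in the LKB1 line, with 626 reads in the LKB1 line and 2296 in the vector line over all 8, and none was at 0. Of 10 luminal breast markers SPDEF and AGR2 fell (4427 reads in the LKB1 line and 5403 in the vector line over the list). Of 7 fibroblast markers COL3A1 and COL1A1 fell, and DCN and THY1 were at 0 in both lines (419 reads in the LKB1 line and 454 in the vector line). Of 4 leukocyte markers LCP1 fell and CD14 rose (347 reads in the LKB1 line and 771 in the vector line). Chosen after their values were seen, CDKN2A had 3 reads in the LKB1 line and 32 in the vector line and MTAP 2 in the LKB1 line and 37 in the vector line, while CDKN2B was at 0 in both. These neighbours on chromosome 9 are known to be deleted in MDA-MB-231. With the direction of the folds taken as above, the CDKN2A and MTAP reads of the vector line went against the cell line its labels give, while CDKN2B did not. The LKB1 line also had a few reads of CDKN2A and MTAP. As the genes were chosen after the fact, the identity of either line was not tested. The part of these differences in the HOX values was not tested. In bulk RNA, fewer cells of a type and less RNA per cell cannot be told apart.

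The sequences that bear on the results are a microRNA of the HOXA cluster, its matches in HOX messages, and the start regions of a HOX gene that fell and of 1 that was not called. MIR196B lies within the annotated span of HOXA9, on the side of HOXA10, and had reads in the LKB1 line only, as described below. Its 5p arm and that of MIR196A2, in the HOXC cluster, share a seed, bases 2 to 8, shown in capitals. They differ by A12C, counted from 1 at the 5′ end of miR-196a-5p, with the base of miR-196a-5p first. The RefSeq sequences, 5′ to 3′ (GRCh38.p14, miR-196b-5p at chr7:27169528-27169549 on the minus strand), were:
hsa-miR-196b-5p: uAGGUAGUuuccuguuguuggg
hsa-miR-196a-5p: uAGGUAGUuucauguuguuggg
hsa-miR-196b-3p: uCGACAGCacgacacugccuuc

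MiR-196 is known to target HOX messages. The letters that pair with this seed (ACTACCT, message strand only) were searched in GENCODE 29 3′ UTRs and were present in 7 of the 35 members (20%), against 7.78% of 18957 genes, with a median UTR of 866 bases in the members and 1100 bases in all genes. HOXA7 held 4 of these matches, and HOXA9 and HOXC8 a pair each. The matches with their 14 bases upstream and 1 base downstream, the paired letters in capitals, are shown for the members that had at least 10 reads in a line, for HOXA7 and HOXA9 1 each:
HOXA5: atatttttattcaaACTACCTa
HOXA7: cgaggcacccccaaACTACCTa
HOXA9: acaaaaggaaagaaACTACCTt
HOXB6: tggaaggagcacatACTACCTa
HOXB7: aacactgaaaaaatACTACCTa
A match is a run of letters and not evidence that the site is used.

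Start regions were in the RefSeq promoter table for 17 of the 35 members, as 23 distinct windows of 300 bases (250 before a start and 50 after, GRCh38.p14), 1 of them shared by HOXC4 and HOXC5. HOXA5 and all HOXB members, HOXB3 among them, had no window, so HOXA3 was the only called gene covered. The CCAAT box, bound in most cell types by the factor NF-Y, was present on either strand (CCAAT or ATTGG) in 14 of the 23 windows (60.9%), against 34.6% of 34943 windows of all genes. TGATTNAT, a bipartite letter pattern of PBX with HOX, was in 2 windows (8.70%, against 2.82% of all), TGACAG, the MEIS pattern, in 4 (17.4%, against 15.8%), the caudal pattern TTTATNG in 6 (26.1%, against 9.75%) and AGGTCA, a nuclear receptor half-site, in 0 (against 13.8%), each searched on both strands and with matches of different patterns free to overlap. The windows held a median of 24 CG pairs, from 0 to 44, against 14 in all windows. HOXA3 had 7 windows, of which 6 held no CCAAT letters. The 1 that did, at chr7:27152534-27152833 (minus strand), and the start of HOXD4 at chr2:176151300-176151599 (plus strand) are shown with the CCAAT letters in capitals:
HOXA3: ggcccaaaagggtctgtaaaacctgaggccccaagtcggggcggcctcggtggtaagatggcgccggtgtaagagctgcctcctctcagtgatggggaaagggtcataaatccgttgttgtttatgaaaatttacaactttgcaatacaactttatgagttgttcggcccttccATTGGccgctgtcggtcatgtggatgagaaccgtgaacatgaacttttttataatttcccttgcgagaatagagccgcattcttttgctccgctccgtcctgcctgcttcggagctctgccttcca
HOXD4: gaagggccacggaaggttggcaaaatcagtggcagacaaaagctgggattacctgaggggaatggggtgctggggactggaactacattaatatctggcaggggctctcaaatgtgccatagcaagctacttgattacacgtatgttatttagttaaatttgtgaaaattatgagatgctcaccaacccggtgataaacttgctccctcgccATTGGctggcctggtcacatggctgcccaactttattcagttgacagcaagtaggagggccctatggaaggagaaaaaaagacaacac

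Most HOX genes were low or silent in both lines, and where the lines differed the LKB1 line was mostly the lower. All members together had 435 reads in the LKB1 line and 696 in the vector line, a ratio of 0.601 (0.532 to 0.679). Of the 35 genes, 3 were called, all lower in the LKB1 line: HOXA3, HOXA5 and HOXB3. That was 8.57% of the members, against 5.79% of all 34675 genes called in either direction 2.55% called higher and 3.24% called lower, and against 9.7% of the 18327 protein-coding genes in either direction and 5.6% lower. The share of members called was near that of protein-coding genes. Of the 10 members with 20 to 200 reads 3 were called lower, against 13.3% of protein-coding genes in that range. The deposited fold was below 1 for 26 members and above 1 for 5, and 4 had no reads, which allows up to 3 reads per line. The 26 include HOXA4, HOXA11 and HOXC8, with 1 read in each line and a fold of 0.969 from the depth adjustment alone. Of the 19 members with at least 5 reads, 16 were below 1 (84.2%), against 53.9% of 14880 protein-coding genes with that many reads or an unresolved total. Of the members with reads, 11 had at least 20 over both lines and 20 had 1 to 19. The 11 had a median log2 fold of -0.71 with 8 below 0 (72.7%). Over 13241 protein-coding genes with that many reads the median was -0.03, with 53.4% below 0. The unadjusted p was under 0.05 for 8 members. The share of all genes at that unadjusted threshold was not computed, so this count has nothing to be set against.

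**Figure D1:**
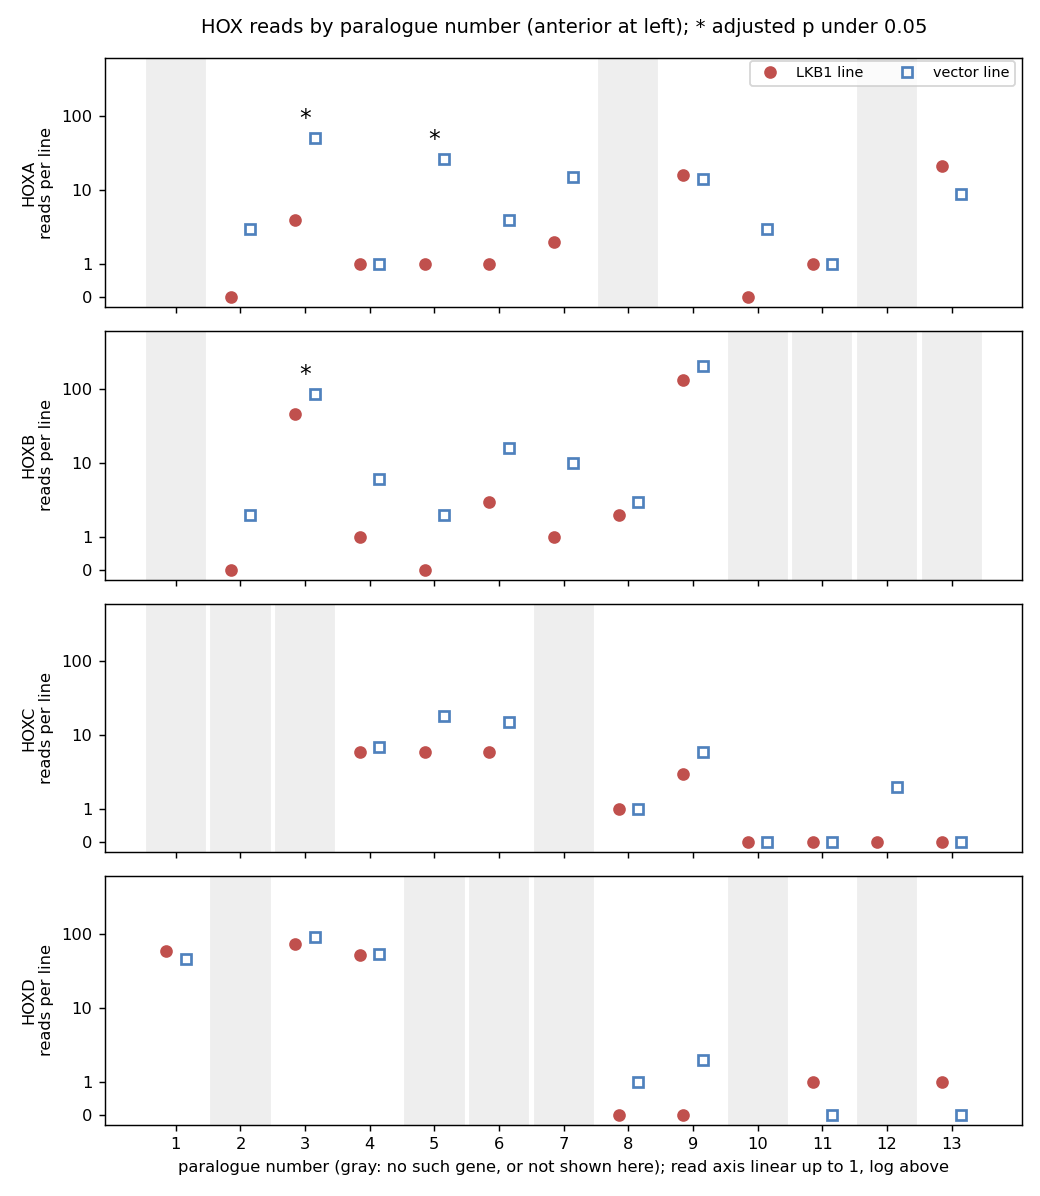
Reads per line for the HOX genes, in 1 panel per cluster, against paralogue number; filled circles are the LKB1 line and open squares the vector line, the read axis is linear up to 1 and logarithmic above, gray columns hold no gene shown here and asterisks mark adjusted p under 0.05. HOXA3, with 4 reads in the LKB1 line and 50 in the vector line, and HOXA5, with 1 in the LKB1 line and 26 in the vector line, lie far apart, while the HOXD1, HOXD3 and HOXD4 symbols lie close together.

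HOXA, on chromosome 7, had 47 reads in the LKB1 line and 126 in the vector line (ratio 0.359, 0.251 to 0.505), and 2 of the 3 calls. HOXA3, which acts in the development of the pharyngeal organs, had 4 reads in the LKB1 line and 50 in the vector line. It was 12.3-fold lower in the LKB1 line by the authors' deposited table (log2 -3.62, adjusted p = 1.04e-07; ENSG00000105997.16, chromosome 7, 27145816 to 27192200, minus strand, hg19). HOXA5, a factor of lung and mammary development, had 1 read in the LKB1 line and 26 in the vector line, a ratio of 0.0370 (0.000902 to 0.225). It fell in the authors' deposited table with an adjusted p of 0.000126 (ENSG00000106004.4, chromosome 7, 27180671 to 27183287, minus strand). Neither gene was silent in the vector line, and neither had more than a handful of reads in the LKB1 line. Per kb of exon, HOXA3 had 0.929 reads in the LKB1 line and 11.6 in the vector line, and HOXA5 0.586 in the LKB1 line and 15.2 in the vector line.

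HOXA3 and HOXA5 may share reads. The annotated span of HOXA3 covers HOXA4, HOXA5 and HOXA6 on the same strand, and whether a read in shared sequence was counted for 1 of them, both or neither is not given in the sources used here. HOXA4 had 1 read in each line and HOXA6 1 read in the LKB1 line and 4 in the vector line. HOXA7, next in order and free of such overlap, had 2 reads in the LKB1 line and 15 in the vector line (ratio 0.128, 0.0142 to 0.551) and missed the threshold by the authors' deposited table (adjusted p = 0.0617). Without HOXA3, HOXA4, HOXA5 and HOXA6, the other 7 HOXA genes had 40 reads in the LKB1 line and 45 in the vector line, and the ratio of the cluster was 0.855 (0.544 to 1.34).

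The posterior end of HOXA gave another picture. HOXA9, a factor of blood progenitors, limb and mammary gland, had 16 reads in the LKB1 line and 14 in the vector line (ratio 1.10, 0.503 to 2.43). MIR196B and RP1-170O19.20, described below, overlap HOXA9 on the same strand. Reads that HOXA9 shares with them cannot be told apart, here or in the posterior totals. HOXA13, a factor of limb ends and the urogenital tract, had 21 reads in the LKB1 line and 9 in the vector line (ratio 2.24, 0.985 to 5.57) and was not called by the authors' deposited table (log2 1.14, adjusted p = 0.673). HOXA10 had 0 reads in the LKB1 line and 3 in the vector line, and HOXA11 1 in each. The 4 posterior genes together had 38 reads in the LKB1 line and 27 in the vector line, a ratio of 1.35 (0.805 to 2.31), against 0.0726 (0.0191 to 0.197) for the anterior and 0.105 (0.0324 to 0.262) for the central HOXA genes. The interval of the posterior ratio does not meet the intervals of the other 2, which cover counting error only. The mean paralogue number over HOXA reads was 9.98 in the LKB1 line and 5.58 in the vector line. In the other clusters it was 7.42 (LKB1) and 7.07 (vector) in HOXB, 5.68 (LKB1) and 6 (vector) in HOXC, and 2.74 (LKB1) and 2.89 (vector) in HOXD.

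**Figure D2:**
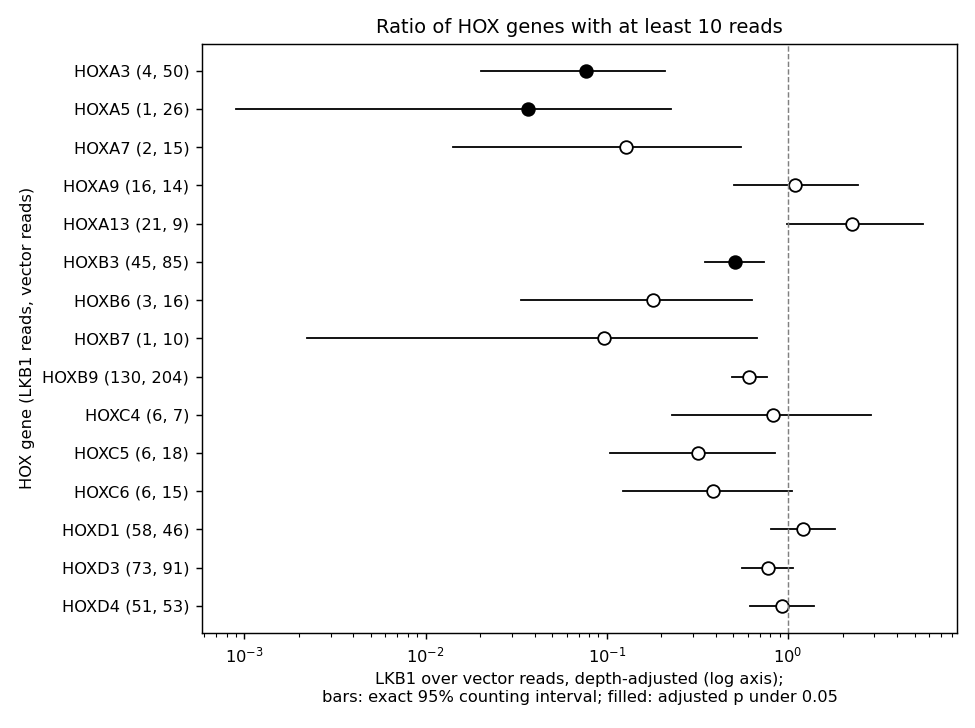
Ratio of LKB1 over vector reads, adjusted for depth, for the HOX genes with at least 10 reads over both lines, on a logarithmic axis; bars are exact 95% counting intervals, filled circles were called at an adjusted p under 0.05, and each label gives the LKB1 and then the vector reads. HOXA3, HOXA5 and HOXA7 lie left of 1 and HOXA9 and HOXA13 right of it, HOXD1, HOXD3 and HOXD4 have intervals that hold 1, and HOXB3 and HOXB9 lie between, at 0.509 and 0.613.

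Other genes within the HOXA cluster were read mainly at its posterior end. MIR196B (chromosome 7, 27209099 to 27209183, minus strand, hg19), inside the annotated span of HOXA9, had 15 reads in the LKB1 line and 0 in the vector line. Set against 3 reads over the vector line, it was 4.81-fold higher in the LKB1 line, with its 15 reads taken as exact. The exact counting interval of its read ratio had a lower limit of 3.45. MIR196B was called by the authors' deposited table (adjusted p = 0.00534). The annotation is the hairpin gene, so its reads do not measure the mature microRNA and cannot be told apart from longer transcripts through it. HOTTIP is a long non-coding RNA antisense to HOXA13 that is known to hold MLL complexes at the posterior HOXA genes. It had 7 reads in the LKB1 line and 0 in the vector line. Set against 3 vector reads in the same way, it was 2.24-fold higher, and its counting interval had a lower limit of 1.39. HOTTIP was not called by the authors' deposited table (adjusted p = 0.254). Whether strand was used in counting is not given, so reads of a gene and its antisense partner, such as HOXA13 and HOTTIP, cannot be told apart. RP1-170O19.20, annotated as protein-coding, overlaps HOXA9 and HOXA10 and had 16 reads in the LKB1 line and 8 in the vector line (adjusted p = 0.807 in the authors' deposited table). HOXA11-AS, antisense to HOXA11, had 0 reads in the LKB1 line and 1 in the vector line. HOTAIRM1, at the anterior end, had 0 reads in the LKB1 line and 2 in the vector line, and HOXA-AS3, antisense to HOXA3 through HOXA7, 0 in the LKB1 line and 3 in the vector line.

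The 7 members with a miR-196 match in the 3′ UTR, whose sequences are shown above, had 24 reads in the LKB1 line and 82 in the vector line, and 1 of them, HOXA5, was called. The 28 members without a match had 411 reads in the LKB1 line and 614 in the vector line, with 2 called. HOXA5, HOXA7, HOXB6 and HOXB7 were among the 26 of all 35 members with folds below 1, as was HOXC8 with 1 read in each line. HOXA9, which also holds matches, had 16 reads in the LKB1 line and 14 in the vector line. Whether miR-196 acted on these genes was not tested. Of 5 HOX cluster microRNA genes in the table, MIR196B was the 1 called; MIR10B, in HOXD, had 2 reads in the LKB1 line and 0 in the vector line, and MIR10A, MIR196A2 and MIR615 had 0 in both. Of 16 HOX long non-coding RNAs on the list (HOXB-AS3 is annotated as protein-coding in the table) 0 were called in the authors' deposited table, 1 (HOTTIP) at an unadjusted p under 0.05, and 6 had no reads.

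HOXB, on chromosome 17, held the HOX gene with the most reads per kb in both lines, HOXB9. All 8 members had folds below 1, and the cluster had 182 reads in the LKB1 line and 328 in the vector line (ratio 0.534, 0.443 to 0.642). HOXB3, a hindbrain factor also known in endothelial and blood cells, had 45 reads in the LKB1 line and 85 in the vector line. It was 1.96-fold lower in the LKB1 line by the authors' deposited table (log2 -0.97, adjusted p = 0.0393; ENSG00000120093.7, chromosome 17, 46626232 to 46682274, minus strand, hg19). Setting the relative spread between libraries of a line to 0.2 for all genes, in place of the authors' estimate, ended this call (adjusted p = 0.288), and the span of HOXB3 covers HOXB4, HOXB5 and HOXB6 on the same strand.

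HOXB9, a posterior gene that acts in mammary gland development with its HOXA and HOXD paralogues, had 130 reads in the LKB1 line and 204 in the vector line (ratio 0.613, 0.488 to 0.767). It missed the threshold by the authors' deposited table (log2 -0.71, adjusted p = 0.0999). RP11-357H14.19, a non-coding transcript over HOXB7, HOXB8 and HOXB9 on the same strand, had 136 reads in the LKB1 line and 225 in the vector line and fell by the authors' deposited table (log2 -0.78, adjusted p = 0.0238), and reads shared between it and HOXB9 cannot be told apart. Per kb of exon, HOXB9 stood at 50.4 reads in the LKB1 line and 79.0 in the vector line, above 55.2% of protein-coding genes in the LKB1 line and 64.4% in the vector line.

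The central HOXB genes were read mainly in the vector line. HOXB6, a factor of thoracic patterning and blood progenitors, had 3 reads in the LKB1 line and 16 in the vector line (ratio 0.180, 0.0337 to 0.630; adjusted p = 0.103 in the authors' deposited table). HOXB7, known to be raised in metastatic breast carcinoma, had 1 read in the LKB1 line and 10 in the vector line (ratio 0.0962, 0.00222 to 0.676; adjusted p = 0.174 in the authors' deposited table). HOXB2, HOXB4, HOXB5 and HOXB8 had 0, 1, 0 and 2 reads in the LKB1 line, in that order, and 2, 6, 2 and 3 in the vector line. The 5 central genes together had 7 reads in the LKB1 line and 37 in the vector line, a ratio of 0.182 (0.0685 to 0.413), none of them called. That interval lies below the one of HOXB9.

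HOXC, on chromosome 12, had the fewest reads of the 4 clusters in both lines, with 22 reads in the LKB1 line and 49 in the vector line (ratio 0.432, 0.249 to 0.728) and 0 of 9 genes called in the authors' deposited table, with 1, HOXC5, at an unadjusted p under 0.05 and 0 called with the spread set to 0.1 or 0.2. HOXC5 had 6 reads in the LKB1 line and 18 in the vector line (ratio 0.321, 0.104 to 0.843; adjusted p = 0.268 in the authors' deposited table). HOXC6, a thoracic gene also expressed in the mammary gland, had 6 reads in the LKB1 line and 15 in the vector line (ratio 0.385, 0.122 to 1.05; adjusted p = 0.564 in the authors' deposited table), and HOXC4 6 in the LKB1 line and 7 in the vector line. These 3 genes overlap one another on the same strand. HOXC9 had 3 reads in the LKB1 line and 6 in the vector line, HOXC8 1 in each line and HOXC12 0 in the LKB1 line and 2 in the vector line, while HOXC10, HOXC11 and HOXC13 had 0 in both. HOTAIR, the HOXC antisense RNA known from metastatic breast carcinoma, had 1 read in the LKB1 line and 0 in the vector line.

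HOXD, on chromosome 2, had nearly all its reads in 3 neighbours at its anterior end. The cluster had 184 reads in the LKB1 line and 193 in the vector line, a ratio of 0.917 whose interval (0.745 to 1.13) holds 1 and lies above those of HOXA, HOXB and HOXC. Without members that overlap another on the same strand the HOXD ratio was 1.18 (0.794 to 1.75), and its interval then overlaps that of HOXA. HOXD1 had 58 reads in the LKB1 line and 46 in the vector line (ratio 1.21, 0.809 to 1.83). HOXD3, known to raise integrin expression in endothelial cells, had 73 in the LKB1 line and 91 in the vector line (ratio 0.772, 0.559 to 1.06). HOXD4, a retinoic acid-responsive hindbrain gene, had 51 in the LKB1 line and 53 in the vector line (ratio 0.926, 0.618 to 1.39). None of the 7 HOXD genes was called in the authors' deposited table or with the spread between libraries set to 0.1 or 0.2, and 0 had an unadjusted p under 0.05. The 3 had log2 folds of 0.28, -0.37 and -0.11, and the adjusted p of HOXD3 was 0.980. A miss at this threshold does not show that the lines had equal levels: the intervals leave room for a ratio of 0.559 in HOXD3 and of 1.83 in HOXD1. HOXD-AS1, which overlaps HOXD1 and HOXD3 on the opposite strand, had 131 reads in the LKB1 line and 132 in the vector line. Whether strand was used in counting is not given, so its reads cannot be told apart from theirs. Leaving out members that overlap another on the same strand kept HOXD1, and so kept this overlap. HOXD8 and HOXD9 had 0 reads in the LKB1 line and 1 and 2 in the vector line, and HOXD11 and HOXD13 1 read each in the LKB1 line and 0 in the vector line.

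As shares of all HOX reads, HOXA made up 10.8% (8.05 to 14.1) of the LKB1 line and 18.1% (15.3 to 21.2) of the vector line. HOXD made up 42.3% (37.6 to 47.1) of the LKB1 line and 27.7% (24.4 to 31.2) of the vector line. HOXB made up 41.8% of the LKB1 line and 47.1% of the vector line, and HOXC 5.06% of the LKB1 line and 7.04% of the vector line, with intervals that overlap between the lines. By position over all clusters, anterior genes held 41.4% of HOX reads in the LKB1 line and 39.8% in the vector line, central genes 18.9% in the LKB1 line and 25.6% in the vector line, and posterior genes 39.8% in the LKB1 line and 34.6% in the vector line. These are shares of reads, which weigh long genes more, and the exact 95% intervals cover counting error only. Without the 16 members that overlap another on the same strand, the order of the lines in HOXA turned round, to 17.2% in the LKB1 line and 14.3% in the vector line, while HOXD kept its order at 25.8% in the LKB1 line and 15.6% in the vector line, and central genes held 2.15% of the LKB1 line and 9.21% of the vector line.

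**Figure D3:**
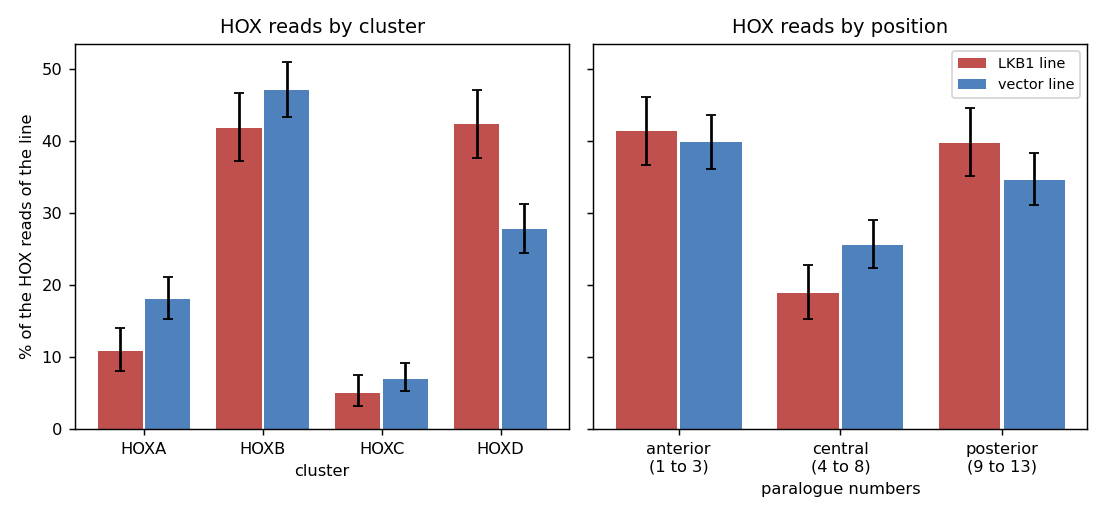
Share of all HOX reads of a line, in percent, by cluster (left) and by position in the cluster (right), with the LKB1 line left of the vector line in each pair; bars are exact 95% binomial intervals for counting error. HOXD stands at 42.3% in the LKB1 line and 27.7% in the vector line, HOXA at 10.8% in the LKB1 line and 18.1% in the vector line, and the intervals of anterior genes overlap.

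Both lines shared a core of HOX genes. At 10 or more reads there were 7 genes in the LKB1 line and 13 in the vector line, and 6 in both (HOXA9, HOXB3, HOXB9, HOXD1, HOXD3 and HOXD4). HOXA13 was the 1 gene at that depth in the LKB1 line alone, and HOXA3, HOXA5, HOXA7, HOXB6, HOXB7, HOXC5 and HOXC6 were the 7 in the vector line alone, 6 of them central. Of the 13562 protein-coding genes at 10 or more reads in either line, 1.81% reached it in the LKB1 line alone and 3.86% in the vector line alone. These shares are not matched for depth. At least 100 reads over both lines, or an unresolved total, were found for 11488 protein-coding genes, and at least 100 reads for 5 HOX genes. At 20 or more reads it was 6 genes in the LKB1 line and 7 in the vector line, with HOXB3, HOXB9, HOXD1, HOXD3 and HOXD4 in both. At 1 or more it was 24 in the LKB1 line and 29 in the vector line, with 22 in both. Ordered by reads per kb of exon, which 34 of the members have, HOXB9, HOXD4, HOXD1 and HOXD3 led in the LKB1 line at 50.4, 34.8, 29.4 and 20.6. The vector line had the same leading 4 at 79.0 (HOXB9), 36.2 (HOXD4), 23.3 (HOXD1) and 25.6 (HOXD3), then HOXA5 at 15.2, HOXA3 at 11.6 and HOXB3 at 11.4. HOXD1 and HOXD3 stood in opposite order in the 2 lines, and neither was called.

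HOX proteins bind DNA with PBX, MEIS and PKNOX partners. MEIS1, the partner of HOXA9 in leukaemia, had 6 reads in the LKB1 line and 41 in the vector line and fell by the authors' deposited table (log2 -2.78, adjusted p = 5.22e-05). PBX2 had 571 reads in the LKB1 line and 756 in the vector line and PKNOX1 273 in the LKB1 line and 354 in the vector line, neither called. PBX3, PBX4, MEIS2, MEIS3 and PKNOX2 were not called either.

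Among upstream regulators, 2 of 8 fell and 0 rose. RARB, a retinoic acid receptor whose own gene responds to retinoic acid, had 7 reads in the LKB1 line and 194 in the vector line (log2 -4.80, adjusted p = 2.78e-30 in the authors' deposited table), and RARG had 176 in the LKB1 line and 278 in the vector line (log2 -0.71, adjusted p = 0.00995 per the authors' deposited table). The RARG call was not kept with the spread between libraries set to 0.2. RARA, with 249 reads in the LKB1 line and 339 in the vector line, and GMNN, with 724 in the LKB1 line and 924 in the vector line, were not called. Of 32 Polycomb genes 2 rose and 1 fell, with a median log2 fold of 0.02. RBBP7, a histone chaperone of PRC2, rose (log2 0.96, adjusted p = 5.11e-09 in the authors' deposited table), as did PCGF5, a PRC1 subunit, with 1883 reads in the LKB1 line and 952 in the vector line. PHC1, a polyhomeotic subunit of PRC1, fell, with 36 reads in the LKB1 line and 93 in the vector line (adjusted p = 0.00332 in the authors' deposited table). PHC2 was not called (adjusted p = 0.0635 in the authors' deposited table).

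Of 16 Trithorax and MLL genes 2 rose and 1 fell, with a median log2 fold of 0.01. The X-linked KDM6A, which removes the repressive H3K27 methyl mark, had 670 reads in the LKB1 line and 335 in the vector line (log2 0.94, adjusted p = 1.58e-05 in the authors' deposited table), while its relative KDM6B had 295 in the LKB1 line and 433 in the vector line (log2 -0.61, adjusted p = 0.0242 per the authors' deposited table). The H3K36 methyltransferase NSD1 had 1738 reads in the LKB1 line and 1206 in the vector line (log2 0.47, adjusted p = 0.0251 in the authors' deposited table). With the spread between libraries set to 0.2, 0 of these 3 calls were left, and 1 of the 2 Polycomb calls it could be set for, RBBP7 having no resolved total. MLL3 was not called (adjusted p = 0.0883 per the authors' deposited table). The caudal and ParaHox genes, relatives of the HOX family, had at most 3 reads in a line, and 0 of 5 were called in the authors' deposited table (0 at an unadjusted p under 0.05).

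Genes around the clusters were read for comparison. SKAP2, an adaptor protein gene beyond the anterior end of the cluster, had 911 reads in the LKB1 line and 508 in the vector line (log2 0.79, adjusted p = 8.27e-05 in the authors' deposited table). HIBADH, an enzyme of valine breakdown beyond HOXA13, had 959 in the LKB1 line and 521 in the vector line (log2 0.82, adjusted p = 6.03e-05 in the authors' deposited table). Of the 10 nearest protein-coding genes with at least 100 reads, these and TAX1BP1 rose and CREB5 fell, with 52 reads in the LKB1 line and 143 in the vector line, and their median log2 fold was 0.11. The 10 such neighbours had a median of -0.05 at HOXB, -0.15 at HOXC and 0.29 at HOXD, with 0 called at each of the 3 in the authors' deposited table (3, 4 and 3 at an unadjusted p under 0.05). With the spread between libraries set to 0.2, 1 of the 4 calls around HOXA was left, and SKAP2 and HIBADH were not called. All 10 neighbours of HOXD had folds above 1 (log2 0.11 to 0.38).

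**Figure D4:**
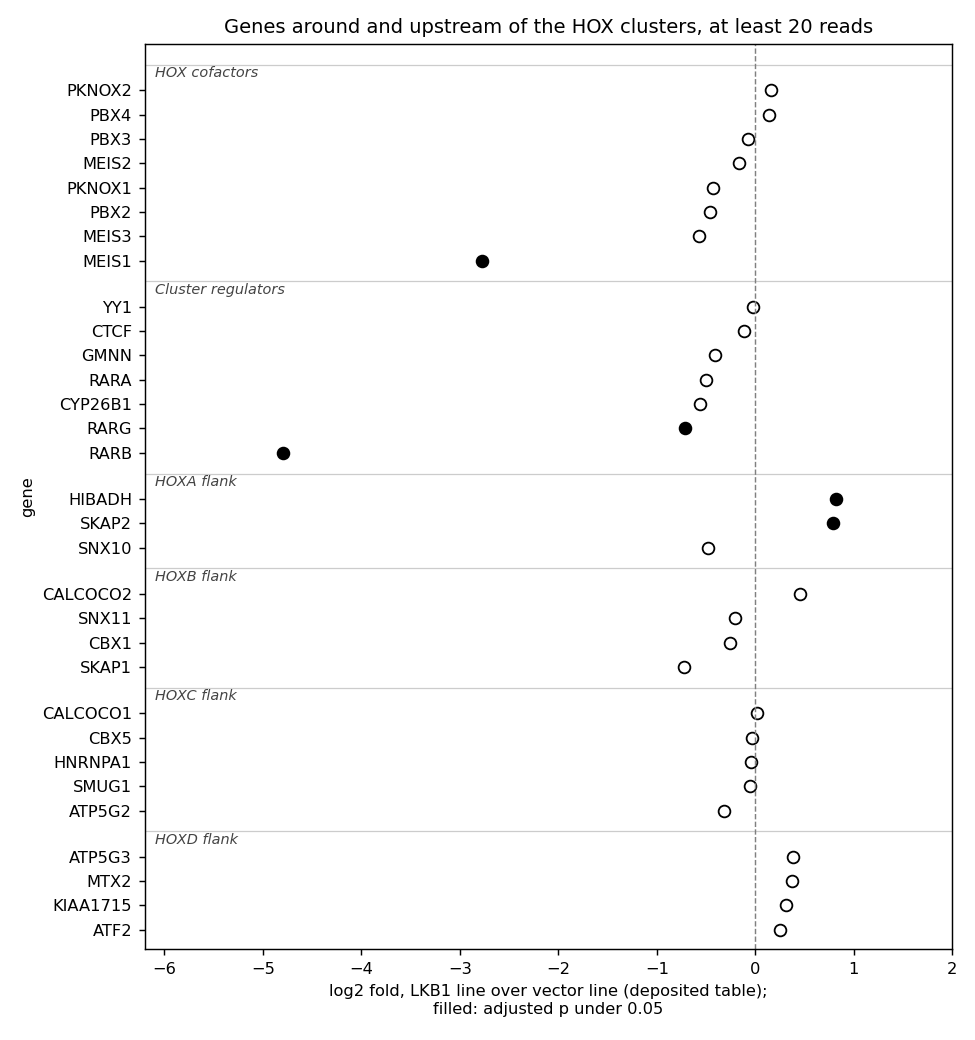
Log2 fold of the LKB1 line over the vector line, from the authors' deposited table, for HOX cofactors, cluster regulators and the genes flanking each cluster with at least 20 reads; filled circles were called at an adjusted p under 0.05 and the dashed line marks no difference. MEIS1 and RARB lie left at -2.78 and -4.80, and HIBADH and SKAP2 lie right at 0.82 and 0.79.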

How the data were processed

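Per the labels, total RNA of 4 libraries, 2 per stable line, was made into stranded whole-transcriptome libraries. The submitters' processing notes name, with no role, the build hg19 and the tools edgeR 2.6.0, TopHat2 2.0.6 and CASAVA 1.8.2. Counting, strand use, annotation release, filters and the test were not given in the sources used here. Values of 34675 genes, per the file headers, were the deposited log2 fold, the fold as a ratio, the p-value and the p-value adjusted. Recomputed Benjamini-Hochberg values differed by at most 1.89e-06.

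Read totals per line were recovered from the fold, which includes prior counts of 0.255 (LKB1) and 0.245 (vector) reads: 27312 of 28242 genes with reads (96.7%) gave whole totals up to 3000 reads, within 1.2 times the rounding of the deposited fold plus a relative 5e-10, 26999 of them a single pair, while altered priors matched 24 to 27 of 1492 sampled genes. Per-library depth is unknown. Medians, shares and exact intervals were computed with Python 3.11.15, numpy 2.4.6, scipy 1.17.1 and pandas 2.3.3. Exon lengths and 3′ UTRs came from GENCODE 29, promoter and microRNA sequences from RefSeq. Alternatives used negative binomial tests on the totals, checked on simulated data.

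All called members and those with at least 20 reads were named with their reads, with up to 4 genes of the smallest p from each list. A few results are not reported here. Members and lists were chosen with earlier results of these data known.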

Additional observations from a re-analysis of the deposited data

How the results depend on the processing

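The count of 3 HOX genes called (HOXA3, HOXA5 and HOXB3) was 2 at an adjusted p under 0.01 and 2 with a fold of at least 2. When adjusted over the 14387 genes with at least 40 reads it was 3 (HOXA3, HOXB3 and HOXB9). HOXA5, with 27 reads over both lines, was left out by that filter and so not tested there. Over 48 genes of any type with a HOX name the count was 3. It was 6, with HOXA7, HOXB6 and HOXB9 added, at an assumed variation of 0.1 between libraries, and 2 (HOXA3 and HOXA5) at 0.2. These negative binomial tests ran on the 33745 genes with resolved totals and called 2287 of them at 0.1 and 905 at 0.2, against 1855 of the same genes in the authors' deposited table, whose test also differs. HOXB9 had an adjusted p of 0.0462 over genes with 40 reads, 0.0208 at 0.1 and 0.502 at 0.2. Centring and ratios with no prior changed no direction among the 11 genes. The median log2 fold of -0.71 was -0.996 over members with at least 5 reads and -0.37 with at least 100.

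Chosen after seeing the data, leaving out the 16 members that overlap another on the same strand left 0 of 19 called, by construction since all 3 overlap. Shares of HOX reads were then 17.2% in the LKB1 line and 14.3% in the vector line for HOXA. In the LKB1 line they were 57.1% for HOXB, 0% for HOXC, 25.8% for HOXD, 24.9% for anterior, 2.15% for central and 73.0% for posterior genes, and in the vector line 69.5%, 0.635%, 15.6%, 16.2%, 9.21% and 74.6% in the same order. No paired analysis was possible because the table holds no value per library, and leaving out each library was not run for the same reason. Totals under 20 reads limit 20 members.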

Other observations

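Of 69 other homeobox genes, 60 had reads, 2 rose and 3 fell, with a median log2 fold of -0.10 over the 32 with at least 20 reads. SIX2, a factor of nephron progenitors, had 37 reads in the LKB1 line and 104 in the vector line and fell by the authors' deposited table (log2 -1.54, adjusted p = 0.000157). IRX5, an Iroquois factor of heart and limb, had 5 in the LKB1 line and 37 in the vector line (log2 -2.88, adjusted p = 0.000171 in the authors' deposited table), and the chromatin organiser SATB1 had 99 in the LKB1 line and 219 in the vector line (log2 -1.20, adjusted p = 0.00105 in the authors' deposited table). PITX1, a hindlimb factor, had 1530 reads in the LKB1 line and 880 in the vector line (log2 0.74, adjusted p = 0.00025 in the authors' deposited table). VAX2, an eye factor, had 23 reads in the LKB1 line and 3 in the vector line, a ratio of 7.37 (2.23 to 38.4), and rose by the authors' deposited table (adjusted p = 0.0114).

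At HOXD, EVX2, which lies beyond HOXD13, had 0 reads in the LKB1 line and 5 in the vector line, and the lincRNA AC009336.24 had 0 in the LKB1 line and 6 in the vector line, neither called by the authors' deposited table (adjusted p = 0.517 and 0.448).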
